A study of Mus musculus with 3 samples.

Results

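In RNA sequencing of tumor-associated macrophages and CD4 T cells, 10 cytokine receptor chains of immune cells were examined. They were Il2rb, Il2rg, Il21r, Il6ra, Il6st, Il27ra, Il10ra, Ifngr1, Ifngr2 and Il17ra, taken by gene name, among 36835 genes with a level. All 10 had a level in the table. BALB/C mice carried Renca renal tumors grown in the kidney, and sorted cells gave 1 library for each of 3 subsets. The subsets were CD4 T cells (TCRβ+ CD4+), type-2 macrophages (M2, F4/80 high and CD11b intermediate) and type-1 macrophages (M1, F4/80 intermediate and CD11b high). The labels name no further treatment and no age for any group. Cells were pooled over mice, from 30 tumors and 4 spleens in all, and harvested on day 14 or day 16, since the labels give both. The CD4 T cells are placed in the spleen by one label and in the tumor by another. With 1 library per subset, no difference below has a replicate check and no test or error is given.

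A cytokine receptor of the class I or class II families has no enzyme of its own. Binding of the cytokine brings 2 or more chains together, the Janus kinases held by the chains are activated, and these phosphorylate STAT transcription factors. Chains are shared, so that the sensitivity of a cell depends on which combination it makes. Il2rg, the common gamma chain, serves the receptors for IL-2, IL-4, IL-7, IL-9, IL-15 and IL-21, and Il2rb serves those for IL-2 and IL-15. Il6st (gp130) transmits the signal of IL-6 together with Il6ra and that of IL-27 together with Il27ra. Il10ra binds IL-10 with Il10rb as its partner, and Ifngr1 and Ifngr2 form the receptor for interferon gamma. Il17ra belongs to a separate family that signals through the adaptor Act1 in place of Janus kinases.

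Most class I chains carry the WSXWS motif (tryptophan, serine, any residue, tryptophan, serine) in the outer part of the protein. A match was found in 5 of the 10 members, translated from their leading transcripts, and in 71 of 22737 genes of the annotation, which is 0.312%. The coding bases around each match are shown because they are a sequence feature that members of the class I family share. Each is a single stretch of 27 bases on the coding strand, with the codons for both tryptophan-serine pairs in capitals.

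Il2rb: gggaccTGGAGTcccTGGAGCcagccc
Il2rg: caacagTGGAGTaaaTGGAGCcagcct
Il21r: gggaccTGGAGTgagTGGAGTgacccc
Il6ra: ggccagTGGAGCgaaTGGTCCccagag
Il6st: ggctacTGGAGTgacTGGAGTgaggag

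In build NCBIM37 (also called MM9), the stretch of Il2rb lies at chr15:78316187-78316213 on the reverse strand, in exon 7 of 10. That of Il2rg lies at chrX:98461548-98461574 on the reverse strand, in exon 5 of 8. Those of Il21r, at chr7:132772506-132772532 on the forward strand, and Il6ra, at chr3:89689846-89689872 on the reverse strand, are in exon 6 of 9 and exon 6 of 10. That of Il6st lies at chr13:113280799-113280825 on the forward strand, in exon 6 of 15. No match was found in Il27ra, Il10ra, Ifngr1, Ifngr2 and Il17ra, which says only that these letters are not in the annotated proteins. The motif YXXQ (tyrosine, any pair of residues, glutamine), at which STAT3 is known to dock when the tyrosine is phosphorylated, was counted too. Il6st held 5 matches, 4 of them in the C-terminal 40% of its 917 residues, and 1.06% of annotated proteins held as many. Il10ra held 3, all in the C-terminal 40% of its 575 residues. Il21r also held 3, with 1 in the C-terminal 40% of its 529 residues, and 5.42% of proteins held as many. Il6ra and Ifngr2 held 2 each, and 14.4% of proteins held as many. Those of Ifngr2 were in its C-terminal 40%, while Il6ra had 0 there. Il2rb and Il2rg held 1 each, with 0 in the C-terminal 40%. Il27ra, Il17ra and Ifngr1 held 0, against 38.2% of all proteins with at least 1 match.

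The libraries were checked by marker genes before the members were compared, since the names of 2 of them were contradicted. All 15 T-cell markers were highest in the M2-labelled library, with levels of 47.8 to 250 FPKM (fragments scaled to the length of the transcript and to the mapped reads of the library). Their summed level was 1955 FPKM there, 19.6 in the CD4-labelled library and 7.19 in the M1-labelled one. In both of the latter libraries Cd247 was listed at 0 in its first complete row. With all rows added it was at 2.74 FPKM in the CD4-labelled library and 3.14 in the M1-labelled one. All 13 macrophage markers were lowest in the M2-labelled library, summing to 668 FPKM against 13448 in the CD4-labelled library and 8515 in the M1-labelled one. The 5 B-cell markers summed to 47.0, 0.492 and 0.405 FPKM in the M2-, CD4- and M1-labelled libraries, the 8 CD8 and NK cell markers to 35.4, 1.39 and 6.46, the 6 neutrophil markers to 198, 10.9 and 49.6, and the 8 kidney epithelial markers to 185, 89.4 and 69.4. Of these lists, 3 of 5, 6 of 8, 5 of 6 and 4 of 8 markers were highest in the M2-labelled library. S100a8 (84.5 FPKM) and S100a9 (110) held most of the neutrophil sum there. Cdh16 (87.8), Krt8 (54.6) and Krt18 (35.8) held most of the kidney sum. Levels therefore go against the names M2 and CD4, each library is called by its label throughout, and every direction below rests on those labels. Depth, estimated from the level of 1 fragment, was 59700000 fragments for the M2-labelled library, 71500000 for the CD4-labelled one and 62200000 for the M1-labelled one.

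**Figure D1:**
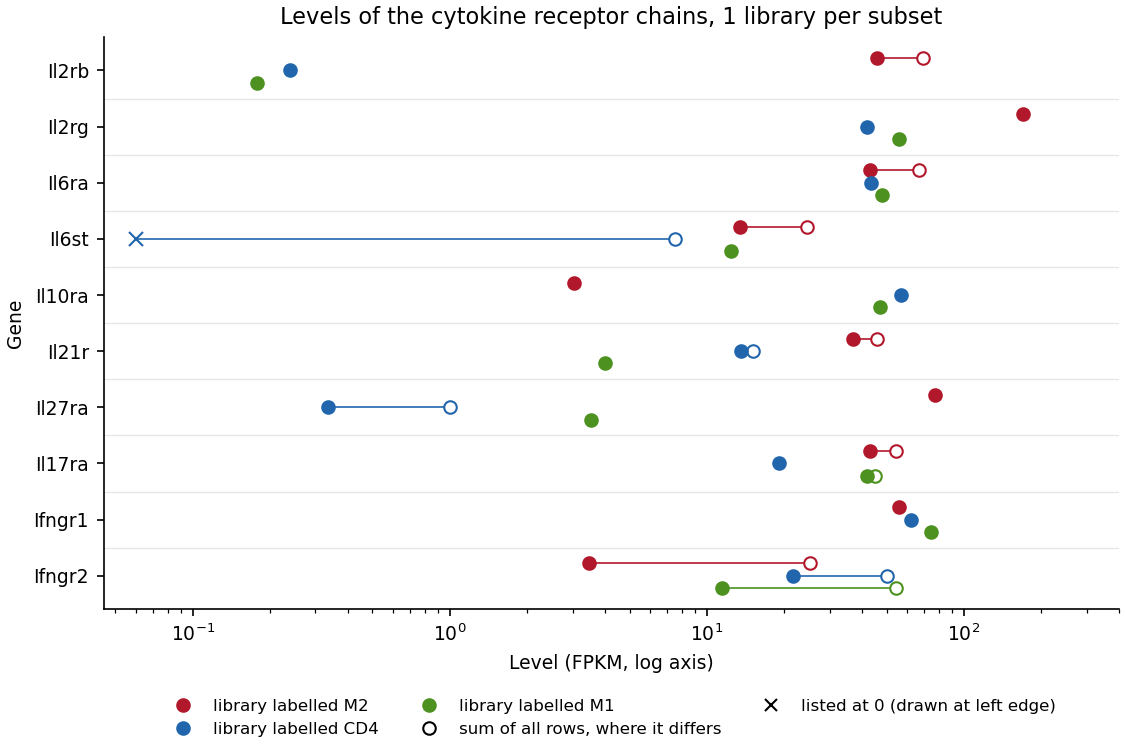
Level of each receptor chain in FPKM on a log axis, one point per library, with filled points for the first complete row of each identifier and open points for the sum over all rows where it differs. Il2rb and Il27ra are far higher in the M2-labelled library, Il10ra is far lower there, and Il6ra and Ifngr1 lie close together in all 3 libraries.

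Some members were high in the M2-labelled library and others low in it, while Il6ra and Ifngr1 were within the threshold in every comparison. A member was counted as higher or lower where the log2 ratio of FPKM + 1 was 1 or more in size, on a scale in which differences of low genes come out too small. Against the CD4-labelled library, 6 of the 10 members were higher in the M2-labelled one (Il2rb, Il2rg, Il6st, Il21r, Il27ra and Il17ra), while 17.3% of 12438 genes were. Lower were 2 (Il10ra and Ifngr2), against 15.3% of genes. Against the M1-labelled library, 4 were higher (Il2rb, Il2rg, Il21r and Il27ra), with a background of 17.0% of 12443 genes, and Il10ra and Ifngr2 were lower, with a background of 14.5%. Between the macrophage-marker libraries (CD4- and M1-labelled), Il21r was higher in the CD4-labelled one, where 6.98% of 11587 genes were higher. Il6st, Il27ra and Il17ra were lower there, where 7.24% of genes were. Il2rb was under 1 FPKM in both and was not among the 9 members compared. The median log2 ratio over the members was 1.26 for M2 over CD4, 0.07 for M2 over M1 and -0.26 for CD4 over M1, beside 0.12, 0.10 and -0.01 over all genes. With all rows added, these medians were 1.51, 0.70 and -0.26, beside 0.22, 0.20 and -0.02. The T-cell markers were higher and the macrophage markers lower in the M2-labelled library together with these differences, and the part of cell makeup in them was not tested. In such bulk libraries, fewer cells that make a chain and less of its RNA per cell cannot be told apart.

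**Figure D2:**
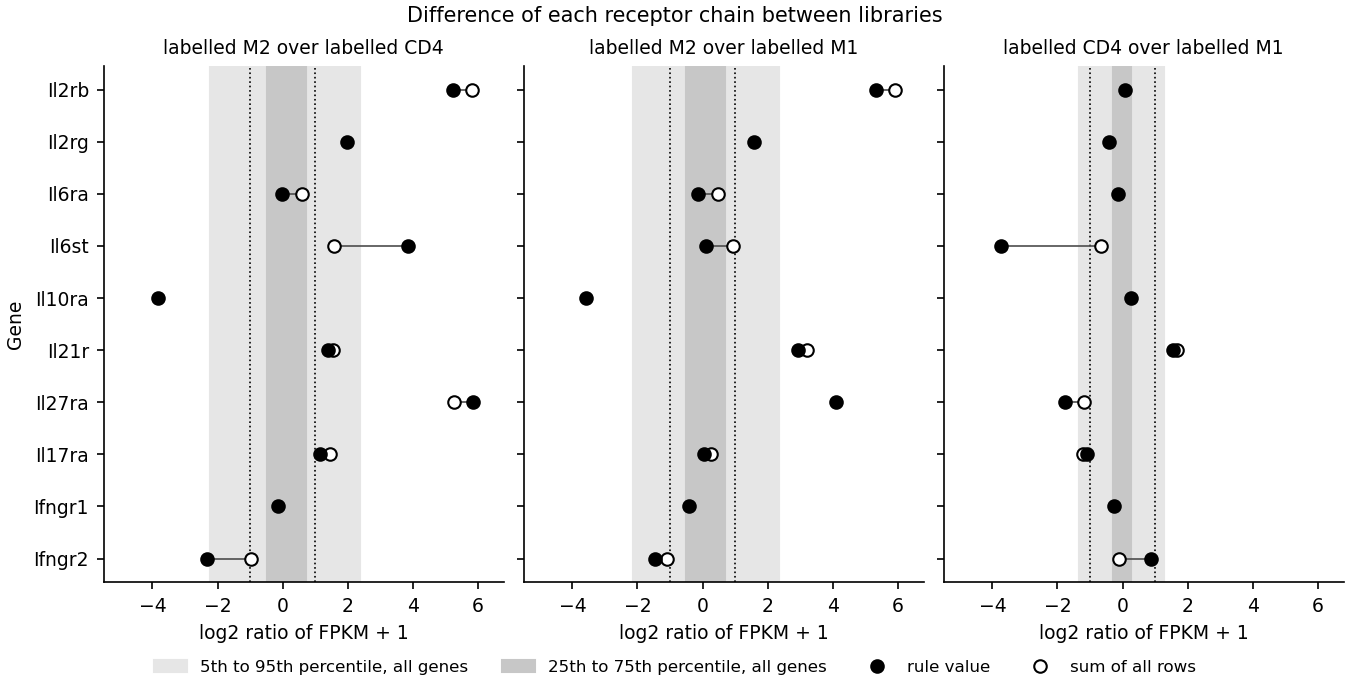
The log2 ratio of FPKM + 1 of each receptor chain for the 3 pairs of libraries, with filled points for the rule value, open points for the sum over all rows, grey bands for the spread over all genes compared and dotted lines at a log2 ratio of 1 in size. Il2rb, Il27ra and Il10ra lie outside the 5th to 95th percentile band in both comparisons with the M2-labelled library, and Il6st and Ifngr2 move most between row settings.

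Among the common gamma chain receptors, Il2rg itself was the most abundant member of the M2-labelled library. Il2rg (ENSMUSG00000031304) is on the reverse strand of chromosome X from 98459717 to 98463594, and all its listed level was in the transcript of 1670 bases. It was at 169 FPKM in the M2-labelled library, 41.9 in the CD4-labelled one and 55.8 in the M1-labelled one. The level in the M2-labelled library was 4.04-fold and 3.03-fold that in the others (log2 ratios 1.99 and 1.58), and higher than that of 98.9% of genes above 0. The chain was well above 10 FPKM in every library, so it was not confined to the one with T-cell markers.

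Il2rb, the signalling chain of the IL-2 and IL-15 receptors, was by contrast under 1 FPKM outside the M2-labelled library. It was at 45.9 FPKM in the M2-labelled library, 0.238 in the CD4-labelled one and 0.177 in the M1-labelled one. The low levels correspond to about 46 and 26 fragments, against about 7110 in the M2-labelled library. The ratio was 193 against the CD4-labelled library and 259 against the M1-labelled one, and 99.4% and 99.5% of genes had a lower log2 ratio. With all rows added, Il2rb was at 69.4 FPKM in the M2-labelled library and the ratios were 292 and 392. Of the 2 annotated transcripts, Il2rb-201 (2692 bases) held 87.6% of the level in the M2-labelled library and Il2rb-202 (1894 bases) 12.4%. CD8 and NK cells also make this chain. Of their 8 markers, 7 could be compared between the M2- and M1-labelled libraries. In the M2-labelled one 5 were higher, where 17.0% of all genes were. Klrb1c was lower, at 0.735 against 3.18 FPKM, where 14.5% of genes were. Against the CD4-labelled library, 5 of 6 were higher and 0 lower, beside 17.3% and 15.3% of genes. In the M2-labelled library Nkg7 was at 17.1 FPKM, Cd8b1 at 5.59, Cd8a at 5.18, Klrk1 at 3.05, Gzmb at 2.51 and Ncr1 at 1.18, with Prf1 listed at 0 and at 7.04 over all rows, beside Cd4 at 166. Their part in the level of Il2rb was not tested.

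Il21r, which pairs with Il2rg to bind IL-21, differed past the threshold in all 3 comparisons, as did Il27ra. Il21r was at 37.1 FPKM in the M2-labelled library, 13.6 in the CD4-labelled one and 4.00 in the M1-labelled one. It was 2.73-fold higher in the M2-labelled library than in the CD4-labelled one and 3.39-fold higher in the latter than in the M1-labelled one. The log2 ratio of 1.54 between the CD4- and M1-labelled libraries, which both carry macrophage markers, was above that of 96.3% of genes. It was the single member counted as higher in the CD4-labelled library than in the M1-labelled one.

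Within a library, the gamma chain exceeded each partner set beside it, apart from Il4ra in the CD4-labelled library. Il2rg was 3.69-fold Il2rb and 4.57-fold Il21r in the M2-labelled library, or 2.44-fold and 3.71-fold over all rows. In the CD4- and M1-labelled libraries it was 176-fold and 315-fold Il2rb. Against Il21r it was 3.09-fold in the CD4-labelled library and 14.0-fold in the M1-labelled one. Il2ra, the alpha chain that gives the IL-2 receptor its high affinity and is high on regulatory T cells, was at 10.2, 0.129 and 0.444 FPKM in the M2-, CD4- and M1-labelled libraries. Il7r, the IL-7 receptor chain of resting T cells, was at 104, 0.882 and 8.15 FPKM. Over all rows Il2ra was at 16.3 FPKM in the M2-labelled library and Il7r at 16.9 in the M1-labelled one. Il4ra, the IL-4 receptor chain, was instead highest in the CD4-labelled library and even between the others, at 22.5, 69.6 and 23.0 FPKM. Over all rows it was at 34.6, 96.6 and 34.1 FPKM. In the CD4-labelled library Il2rg was 0.603 times Il4ra, or 0.434 times over all rows. FPKM is per length, so these ratios compare levels of different genes.

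**Figure D3:**
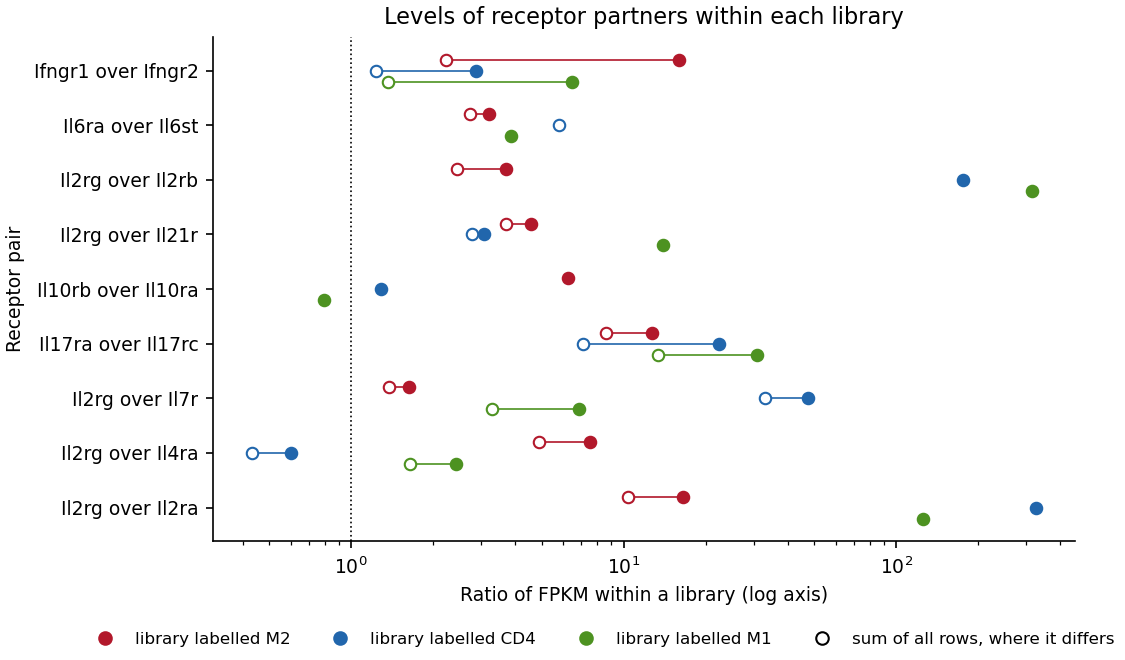
Ratio of the levels of receptor partners within each library on a log axis, one point per library, with open points for the sum over all rows where it differs. Il2rg exceeds Il2rb by 3.69-fold in the M2-labelled library and by 176-fold and 315-fold in the other libraries, and Il10rb exceeds Il10ra by 6.25-fold in the M2-labelled library and by 1.29-fold in the CD4-labelled one.

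Of the gp130 group, Il27ra had the largest ratio of all members between the M2- and CD4-labelled libraries, Il6ra was even, and Il6st could not be placed in the CD4-labelled library. Il27ra (ENSMUSG00000005465, on the reverse strand of chromosome 8 between 86554186 and 86566488) was at 76.8 FPKM in the M2-labelled library, 0.336 in the CD4-labelled one and 3.55 in the M1-labelled one. The M2-labelled library was 229-fold above the CD4-labelled one and 21.6-fold above the M1-labelled one. With all rows added, the level in the CD4-labelled library was 1.00 FPKM and the first of these ratios 76.8, below that of Il2rb. The CD4- and M1-labelled libraries also differed, with Il27ra 10.6-fold higher in the M1-labelled one, or 3.55-fold with all rows.

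Il6ra, the IL-6 binding chain, was at 43.1 FPKM in the M2-labelled library, 43.6 in the CD4-labelled one and 47.9 in the M1-labelled one. These levels span 1.11-fold. The sign of the log2 ratios of -0.02 and -0.15 for the M2-labelled library turned when FPKM was rescaled to a common total or when all rows were added, which gave 66.8 FPKM in that library. Il6ra was thus within the fold threshold in every comparison and setting run.

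Il6st was at 13.4 FPKM in the M2-labelled library and 12.4 in the M1-labelled one, and its first complete row was listed at 0 in the CD4-labelled one. A further row of the same identifier held 7.53 FPKM in the CD4-labelled library. The kinase gene Tyk2 was likewise listed at 0 in that library by this rule and at 18.4 FPKM over all rows. What such a 0 stands for was not tested. Summed over its rows, Il6st was at 24.4, 7.53 and 12.4 FPKM in the M2-, CD4- and M1-labelled libraries, a 3.24-fold excess of the first over the second. Its place among the members lower in the CD4-labelled library than in the M1-labelled one was lost on that sum, with a log2 ratio of -0.65. Il6ra exceeded Il6st by 3.21-fold in the M2-labelled library and by 3.86-fold in the M1-labelled one, and by 5.79-fold in the CD4-labelled one over all rows. Il27ra, in contrast, was 5.72-fold Il6st in the M2-labelled library and 0.286 times Il6st in the M1-labelled one. Over all rows the first of these was 3.14-fold.

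**Figure D4:**
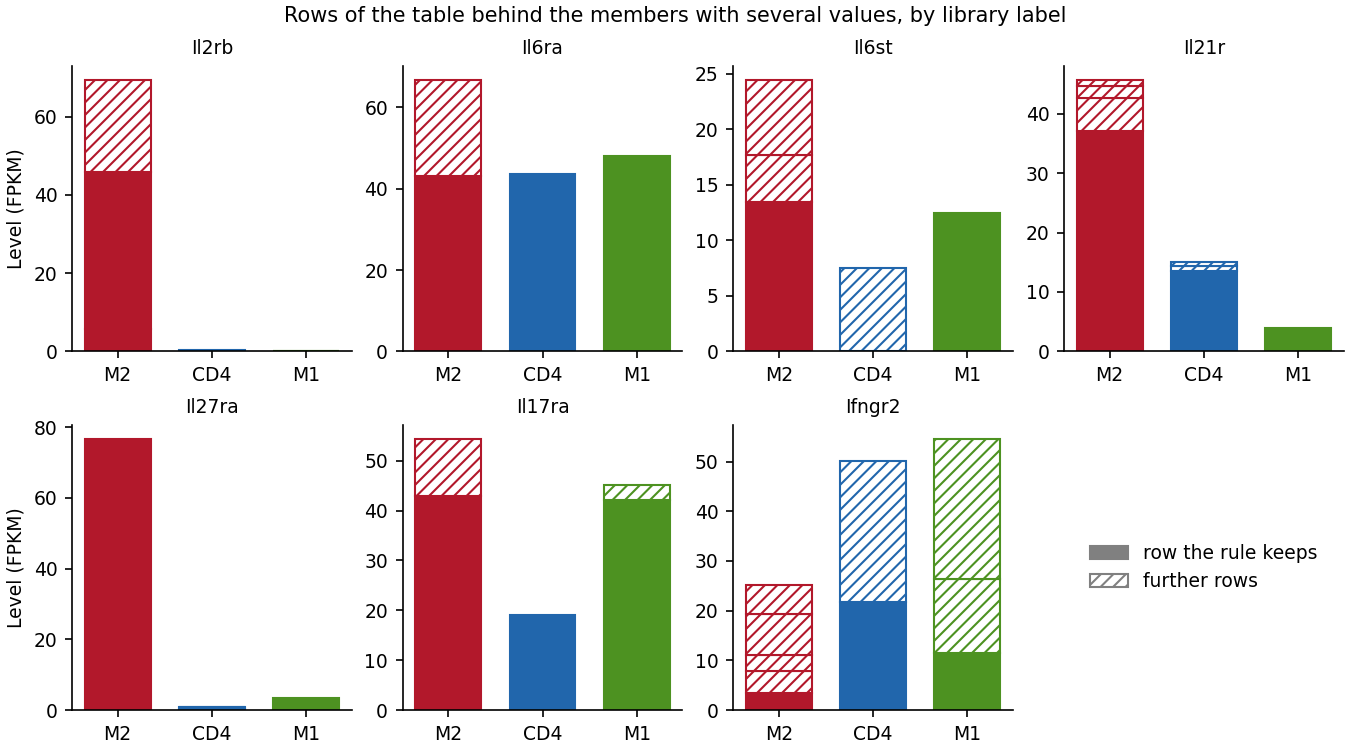
Level in FPKM of the rows behind the 7 members with values in more than the kept row, as stacked bars by library label, with filled bars for rows the rule keeps and hatched bars for further rows. For Il6st in the CD4-labelled library the whole bar is hatched, and for Ifngr2 the hatched part is larger than the filled part in each library.

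Il10ra, the chain that binds IL-10 and is known from macrophages as well as lymphocytes, ran opposite to Il2rb and Il27ra. Il10ra (ENSMUSG00000032089, on the reverse strand of chromosome 9 between 45061922 and 45077232) was at 3.05 FPKM in the M2-labelled library, 56.9 in the CD4-labelled one and 47.1 in the M1-labelled one. The M2-labelled library was lower by 18.6-fold and 15.4-fold, and 1.21% and 1.65% of genes had a lower log2 ratio. The CD4- and M1-labelled libraries differed by 1.21-fold. Its transcripts also differed in their shares. In the CD4- and M1-labelled libraries the whole level was in Il10ra-201 (3496 bases, 7 exons), while in the M2-labelled one Il10ra-201 was at 1.52 FPKM and Il10ra-202 (3374 bases, 6 exons) at 1.53. These transcripts share most of their length, so the division rests on the model of Cufflinks. The partner Il10rb was at 19.1, 73.1 and 37.4 FPKM in the M2-, CD4- and M1-labelled libraries. Il10rb was 6.25-fold Il10ra in the M2-labelled library, 1.29-fold in the CD4-labelled one and 0.795 times in the M1-labelled one.

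The chains of the interferon gamma receptor were not at like levels. Ifngr1, the binding chain, was at 55.8 FPKM in the M2-labelled library, 62.1 in the CD4-labelled one and 74.3 in the M1-labelled one, a span of 1.33-fold. It was the most abundant member in the CD4- and M1-labelled libraries, and its order between the M2- and CD4-labelled libraries turned when FPKM was rescaled to a common total. All of its level was in 1 of 6 annotated transcripts, Ifngr1-001. Ifngr2, the chain that completes the receptor for signalling, was at 3.48 FPKM in the M2-labelled library, 21.7 in the CD4-labelled one and 11.5 in the M1-labelled one. It was 6.22-fold lower in the M2-labelled library than in the CD4-labelled one and 3.29-fold lower than in the M1-labelled one.

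The level of Ifngr2 depended strongly on the rows taken. Its main identifier had several rows, and over all rows it was at 25.1, 50.1 and 54.6 FPKM in the M2-, CD4- and M1-labelled libraries. The M2-labelled library was then 1.99-fold below the CD4-labelled one, with a log2 ratio of -0.97 that no longer reached the threshold, and 2.17-fold below the M1-labelled one, with a log2 ratio of -1.09 that did. The order of the CD4- and M1-labelled libraries turned. Ifngr1 exceeded Ifngr2 by 16.0-fold, 2.87-fold and 6.49-fold in the M2-, CD4- and M1-labelled libraries, and by 2.22-fold, 1.24-fold and 1.36-fold over all rows. In both settings the largest excess of Ifngr1 was in the M2-labelled library.

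Il17ra, the chain common to several receptors of the IL-17 family, was at 43.0 FPKM in the M2-labelled library, 19.0 in the CD4-labelled one and 42.1 in the M1-labelled one. It was 2.26-fold higher in the M2-labelled library and 2.21-fold higher in the M1-labelled one than in the CD4-labelled one. The M2- and M1-labelled libraries differed by 1.02-fold, and their order turned with median ratio scaling. Its partner Il17rc was at 3.37, 0.849 and 1.36 FPKM in the M2-, CD4- and M1-labelled libraries, so that Il17ra exceeded it by 12.8-fold, 22.4-fold and 30.9-fold. Over all rows Il17rc was at 6.30, 2.67 and 3.38 FPKM and the excess of Il17ra was 8.64-fold, 7.11-fold and 13.3-fold, so that the order of the M2- and CD4-labelled libraries turned.

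By the first complete rows, the order of level of the members in the M2-labelled library was Il2rg, Il27ra, Ifngr1, Il2rb, Il6ra, Il17ra, Il21r, Il6st, Ifngr2 and Il10ra. In the CD4-labelled one Ifngr1 and Il10ra led, followed by Il6ra, Il2rg, Ifngr2, Il17ra and Il21r, with Il27ra and Il2rb under 1 FPKM and Il6st listed at 0. In the M1-labelled one the order was Ifngr1, Il2rg, Il6ra, Il10ra, Il17ra, Il6st, Ifngr2, Il21r, Il27ra and Il2rb. Levels of neighbours such as Il6ra and Il17ra in the M2-labelled library, or Il6ra and Il10ra in the M1-labelled one, have no replicates that could show whether they differ. At 10 FPKM or more in every library were 4 members, Il2rg, Il6ra, Il17ra and Ifngr1, by the first rows. Over all rows Ifngr2 joined them, which makes 5. Over all rows Ifngr2, at 54.6 FPKM in the M1-labelled library, came next after Il2rg at 55.8, and in the M2-labelled library Il2rb at 69.4 and Il6ra at 66.8 were above Ifngr1 at 55.8.

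The other receptor chains of these families showed differences in both directions. The shares of all genes given for the members, 17.3% higher and 15.3% lower against the CD4-labelled library and 17.0% and 14.5% against the M1-labelled one, are the background for each list that follows. Of 22 chains, 17 could be compared between the M2- and CD4-labelled libraries, with 6 higher and 9 lower in the M2-labelled one and a median log2 ratio of -1.27. Among those lower were the chains of the GM-CSF receptor, which supports myeloid cells. Csf2rb was at 6.32, 76.4 and 153 FPKM in the M2-, CD4- and M1-labelled libraries, and Csf2ra at 7.17, 96.3 and 170. Csf2rb has a near-identical neighbouring copy in mice, and Il11ra1 has near-identical copies, so their levels are uncertain. Lifr, the receptor for leukemia inhibitory factor and a partner of Il6st, was at 0.741, 12.1 and 5.53 FPKM. Over all rows it was at 1.74, 20.6 and 7.78 FPKM. Between the M2- and M1-labelled libraries, 4 of 17 chains were higher and 5 lower in the M2-labelled one, with a median of -0.19. The median for M2 over CD4 was -0.41 after rescaling to a common total and -0.89 with all rows added. Between the CD4- and M1-labelled libraries, 12 of 15 chains were within the threshold. In the CD4-labelled one 1 was higher and 2 were lower, beside 6.98% and 7.24% of all genes.

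Of 11 Janus kinases and STATs, 7 were higher in the M2-labelled library than in the CD4-labelled one, where 17.3% of all genes were, and 0 were lower, where 15.3% were. The median log2 ratio was 1.16. With all rows added, 5 were higher and 0 lower, beside 20.5% and 14.2% of genes, with a median of 0.93. Against the M1-labelled one, 5 were higher and 1 lower, with a median of 0.48. Jak1, which binds Il2rb, Il6st and Ifngr1 among others, was at 146, 54.5 and 60.5 FPKM in the M2-, CD4- and M1-labelled libraries. Jak3, the partner of Il2rg, was at 43.5, 20.7 and 14.5 FPKM. Stat4, a STAT of T and NK cells that acts after IL-12, was at 23.8, 0.0792 and 0.947 FPKM. Stat3, which is activated after IL-6, IL-10 and IL-21, was at 45.1, 29.6 and 48.2 FPKM, within the threshold in each comparison. Over all rows Stat3 was at 51.8 FPKM in the CD4-labelled library, above the others, and its log2 ratio for M2 over CD4 turned from 0.59 to -0.20. The call for Tyk2 rested on rows, since it was at 2.54, 0 and 20.5 FPKM by the rule and at 17.5, 18.4 and 28.4 over all rows.

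**Figure D5:**
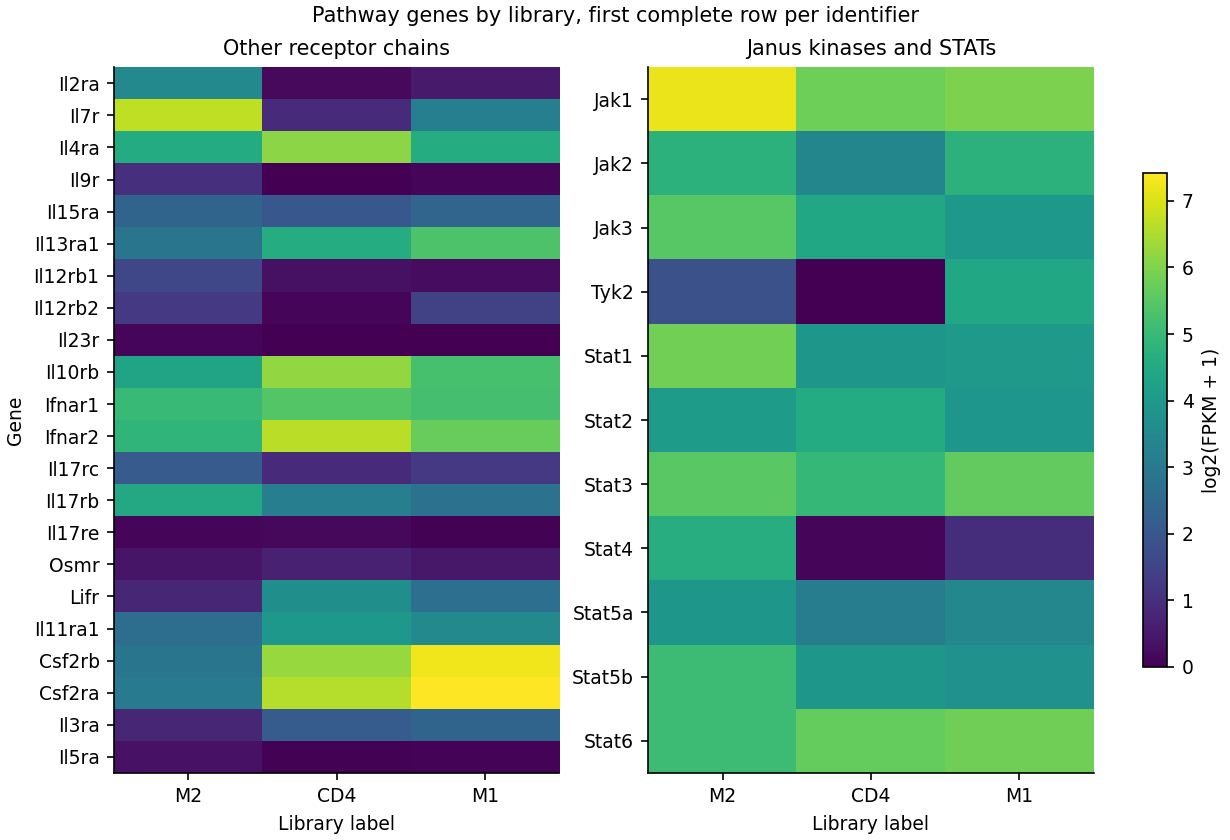
Level as log2(FPKM + 1), in colour, of 22 other receptor chains and of 11 Janus kinases and STATs in the 3 libraries. Il7r, Il2ra and Stat4 are brightest in the M2-labelled library, where Csf2rb, Csf2ra and Lifr are darkest.

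Of 7 feedback regulators of this signalling, 2 (Socs1 and Cish) were higher and 1 (Socs3) lower in the M2-labelled library than in the CD4-labelled one. With all rows added 2 were higher and 0 lower, beside 20.5% and 14.2% of genes, since the log2 ratio of Socs3 went from -1.40 to -0.97. Socs3, which binds Il6st and limits IL-6 signals, was at 19.7, 53.6 and 54.5 FPKM in the M2-, CD4- and M1-labelled libraries. Socs1, an inhibitor of Janus kinases, was at 15.3, 1.99 and 6.14 FPKM. Among 5 genes of IL-17 receptor signalling, Traf3ip2 (Act1), the adaptor of Il17ra, was at 13.6, 0.662 and 1.65 FPKM. It was the single one higher in the M2-labelled library than in the CD4-labelled one. After rescaling to a common total 3 of the 5 were, beside 24.2% of all genes. Il17ra and its adaptor were both lowest in the CD4-labelled library. Between the M2- and M1-labelled libraries they differed in size, since Il17ra was 1.02-fold and Traf3ip2 8.26-fold higher in the M2-labelled one.

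Of 16 genes of cytokines that bind these receptors, 5 reached 1 FPKM in the M2- or CD4-labelled library by the first rows. Of all 36835 genes with a level, 12438 did. Among the 16, 10 were under 1 FPKM in all 3 libraries by the first rows and 7 over all rows. Il21 and Il17a were among them in both settings, the latter listed at 0 throughout, while Il2 was at 0.692 FPKM in the M2-labelled library by the rule and at 1.06 over all rows. Il15, a ligand of Il2rb and Il2rg, was at 0.381, 1.81 and 1.26 FPKM in the M2-, CD4- and M1-labelled libraries by the rule and at 0.790, 26.5 and 30.4 over all rows. Ifng was at 2.52 FPKM in the M2-labelled library, 0.0290 in the CD4-labelled one and 0.0320 in the M1-labelled one, with 4.83 in the first over all rows. Ebi3, a subunit of IL-27, was at 2.40, 9.44 and 9.52 FPKM, opposite in direction to Il27ra. Il27 itself was listed at 0 in all 3 libraries by the rule and at 0, 0.535 and 0.685 over all rows. Osm, a cytokine that signals through Il6st, was at 9.21, 6.22 and 23.4 FPKM by the rule and at 9.21, 28.0 and 36.3 over all rows, so that the order of the M2- and CD4-labelled libraries turned. Il10 was at 1.02, 0.987 and 0.0870 FPKM, and Il6 at 0.557, 0.216 and 1.08, or 0.557, 0.400 and 2.18 over all rows.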

How the data were processed

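Each of the 3 sorted subsets gave 1 RNA library. The authors trimmed the paired reads, aligned them to the mouse genome (build mm9) with TopHat and Bowtie and used Cufflinks with the annotation of Ensembl to assemble transcripts. Cuffdiff is also named in the submitters' processing notes. The deposited table holds FPKM, as the authors estimated them, in 135070 rows with a column per library. A dash stands for no value, and why 11522 identifiers have several rows is not given in the sources used here. GENCODE's annotation of NCBIM37 held 90316 of the 92520 identifiers. For each identifier the first row with values in all 3 columns was kept, and rows were summed per gene. This leaves out part of the level of genes with several rows. Where either of 2 libraries had at least 1 FPKM, genes were compared by the log2 ratio of FPKM with a pseudocount of 1. FPKM carries no depth, so the level of 1 fragment was read from the peak of the low FPKM values, multiplied by length, of single-transcript coding genes (2500 to 8000 bases). Fragment numbers are therefore approximate.

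The members are defined by gene name, and they and the lists were chosen with earlier results of these data known. Genes named are the members and genes of lists of other receptor chains, Janus kinases and STATs, regulators, ligands, response genes and markers. For a list gene with 2 annotated entries, the one with the higher level was taken. Alternatives were the sum of all rows, another pseudocount, 2 scalings, a stricter threshold, protein-coding transcripts only and no minimum level. The sum of all rows can lie far above the first complete row. Cd5 went from 81.3 to 11066 FPKM in the M2-labelled library, and Ifnar1 from 42.0 to 9015 in the CD4-labelled one. Levels over all rows are therefore uncertain too. Coding sequences came from the same annotation, and the background of motifs was the longest coding sequence of each gene. The counting of calls was checked on simulated data. Calculations ran in Python 3.11.15 with pandas 2.3.3, numpy 2.4.6 and scipy 1.17.1, and figures in matplotlib 3.10.9. Proteins and flow cytometry were not analysed here.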

Additional observations from a re-analysis of the deposited data

Results flagged for a closer look

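Rows that the rule leaves out held levels above that of 3 fragments for 7 members, in 12 combinations of gene and library. They are further rows of the same identifiers, and what they stand for was not tested. In the M2-labelled library they added 23.5 FPKM to Il2rb, 23.7 to Il6ra, 11.0 to Il6st, 8.63 to Il21r, 11.4 to Il17ra and 21.7 to Ifngr2. In the CD4-labelled library they added 7.53 FPKM to Il6st, 1.46 to Il21r, 0.664 to Il27ra and 28.5 to Ifngr2. In the M1-labelled library they added 3.06 FPKM to Il17ra and 43.1 to Ifngr2. More of the members had such values in the M2-labelled library than in the others. The whole table also had fewer rows without a value in that library. They were 23458, against 28385 in the CD4-labelled library and 28490 in the M1-labelled one, so this was not particular to the members. The levels of Il2rg, Il10ra and Ifngr1 were the same with and without them.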

How the results depend on the processing

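No paired analysis was possible because each subset had 1 library, and for the same reason no library could be left out of a comparison. With all rows added, 1 member was lower in the M2-labelled library than in the CD4-labelled one in place of 2, as Ifngr2 no longer reached the threshold. With a log2 ratio of at least 2 required, by construction fewer members were counted. Then 3 were higher in the M2-labelled library than in the CD4-labelled one (6.55% of genes were), 1 was lower in it than in the M1-labelled one (5.53%), and between the CD4- and M1-labelled libraries 0 were higher (2.24%) and 1 lower (2.33%) in the CD4-labelled one. All other counts were within 1.5 times. Of the 30 log2 ratios of single members, 30 kept their direction and side of the threshold with a pseudocount of 0.1, 30 with protein-coding transcripts only, 29 with median ratio scaling, 27 after rescaling to a total of 1000000 and 25 with all rows added. With the stricter threshold, 22 did. Rescaling raised the median log2 ratio of all genes by 0.18 for M2 over CD4 and by 0.21 for M2 over M1. In the former, 62.6% of the genes past the threshold were then higher in the M2-labelled library, against 53.1% before. In the latter 64.7% of the genes past the threshold were then higher in the M2-labelled library, against 53.9% before. A level of 3 fragments corresponded to 0.00806 to 0.0301 FPKM over the members and libraries, which covers counting error only.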

Other observations

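Genes known to respond to these receptors differed in both directions. Of 8 interferon gamma response genes, 7 were compared and Psmb9 was listed at 0 in all 3 libraries, and 3 (Irf1, Gbp2 and Tap1) were higher and 2 (Ciita and Cxcl9) lower in the M2-labelled library than in the CD4-labelled one. Irf1, a transcription factor induced by interferon gamma, was at 77.9, 27.4 and 22.4 FPKM in the M2-, CD4- and M1-labelled libraries, and Tap1, a peptide transporter, at 88.3, 27.9 and 27.4. Ciita, which drives MHC class II genes, was at 1.64, 14.4 and 48.8 FPKM, with 4.69 in the first over all rows. Of 5 genes that respond to IL-2 through STAT5, Bcl2, Cish and Il2ra were higher in the M2-labelled library than in the CD4-labelled one. Bcl2, which protects lymphocytes from death, was at 30.7, 2.03 and 2.59 FPKM, while Cish was at 11.8, 2.25 and 12.4. Of 5 genes that respond to IL-10, 4 were within the threshold between these libraries and Bcl3 was lower in the M2-labelled one, at 3.39 against 9.69 FPKM. Sbno2, another of them, was listed at 0 in the M1-labelled library by the rule and at 50.3 FPKM over all rows. The 5 regulatory T-cell markers summed to 57.8 FPKM in the M2-labelled library, 0.606 in the CD4-labelled one and 0.628 in the M1-labelled one.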
